A study of Mus musculus with 24 samples.

Results

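Proteasome genes were described across sorted mouse lymphoid cells on Agilent arrays. The genes were taken by name: every gene whose symbol on the array begins with Psm, then a letter from a to g, then a number, apart from the immunoproteasome genes Psmb8, Psmb9 and Psmb10. The rule gave 46 genes of 33545 genes tested, and 46 of the 46 passed the filter on dim probes. The name rule uses no measured value, apart from taking the brightest probe of a gene. They comprise 8 genes of the alpha ring, 8 of the beta ring, 6 ATPases of the base and 14 non-ATPase genes. There are also 4 activator genes, 1 inhibitor gene and 4 assembly chaperones (Psmg1 to Psmg4). The chaperones Psmd5, Psmd9 and Psmd10 are counted among the 14 non-ATPase genes. The remaining gene, Psmc3ip, met the name rule but encodes a cofactor of DNA recombination and not a proteasome part. Psma8 and Psmb11 are tissue-restricted forms, known from testis and from cortical thymic epithelium, so the set is not purely constitutive.

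The proteasome is the protease that degrades proteins tagged with ubiquitin. Its core is a barrel of stacked rings: alpha rings form the gate, and beta rings carry the active sites of Psmb6 (caspase-like), Psmb7 (trypsin-like) and Psmb5 (chymotrypsin-like). A regulatory particle of a base, with its ring of ATPases, and a lid recognises, unfolds and feeds in the substrate. Lymphocytes also use immunoproteasome forms of the active subunits, and the products are a source of peptides for antigen presentation.

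The 24 arrays, 1 per sample, fall into 8 groups by their labels. From a Foxn1-deficient (-/-) transgenic thymus came CD4/CD8 double-positive thymocytes, here tg DP (n = 4, arrays 4, 6, 6A and 6B), and surface IgM-negative B cells, here tg B (n = 2, arrays 22 and 23). From a thymus labelled wild-type, whose Foxn1 genotype is heterozygous (+/-), came DN3 cells, the stage 3 cells without CD4 and CD8 (n = 3), wt DP cells (n = 3, arrays 3A, 2 and 3), and the SP4 (n = 3) and SP8 (n = 3) single-positive cells. From wild-type fetal liver came IgM-positive (n = 3) and IgM-negative (n = 3) B cells. Foxn1 is a transcription factor of the thymic epithelium. Neither the transgenes nor their promoters are named in the labels. For SP4 samples the title decided the group, since their cell type entry lists SP8 as well. No label ties samples to separate animals, and every p-value thus reflects only how far these samples spread, which may be technical. Arrays 3 and 3A, and 6, 6A and 6B, share a title number and may be repeats. The tg B and fetal liver B cells differ in tissue, age and genotype together, which cannot be told apart.

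The values are log2 processed signals minus the array's 75th percentile, and differences are in log2 units with the SE of limma's fit over all 24 arrays. A gene was called at a Benjamini-Hochberg adjusted p under 0.05 over all genes. On tg B array 23 only 80.6% of probes stood well above background and the median processed signal was 125, while the other 23 arrays had 87.6% to 96.7% and 208 to 314. Lineage genes checked the labels unevenly. Between wt thymocytes and fetal liver B cells limma called 2 of 10 T lineage markers and 0 of 10 B lineage markers (smallest adjusted p of the B lineage markers = 0.159). On every array 6 of 6 myeloid markers were well above background, with mean levels from 1.31 to 2.12, and the purity of the cells was not tested. Tcf7, a T cell transcription factor, was 4.28 ± 0.64 higher in wt thymocytes than in fetal liver B cells (adjusted p = 0.0183), and Trbc2, a T cell receptor constant region, 2.54 ± 0.39 higher (adjusted p = 0.0183). Cd3e, a T cell receptor component, averaged 0.52 to 0.63 in the wt thymocyte groups, against 0.75 to 0.90 in the fetal liver B groups, and so did not separate the lineages. Cd8b1, a chain of CD8, averaged -2.07 ± 0.54 in the samples labelled SP4 and -3.50 ± 0.65 in those labelled SP8 (SD, n = 3 each), against what the labels say. Each value is of sorted bulk RNA after amplification, in which fewer cells of a type and less RNA per cell cannot be told apart.

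No proteasome gene was called in any comparison. The test for any difference among the 8 groups called 0 of 46 genes with limma, while 0.212% of all genes tested were called. At an unadjusted p under 0.05 it held 4 of 46 genes (Psmb2, Psmb7, Psmc3ip and Psmd14), or 8.70%, against 13.6% of all genes. Group means of a gene spanned 0.28 to 3.64 from the lowest to the highest group, with a median span of 1.15. Set against the SD within groups, the span was 0.80 to 3.37 times that SD, with a median of 2.14. The highest group mean fell in DN3 for 12 genes, and DN3 was the lowest for 0 genes. The lowest group mean was that of tg B for 20 genes and that of IgM-positive B cells for 13 genes. These groups were also the highest, tg B for 7 genes and IgM-positive B cells for 3. Such extremes were not counted over all genes, so whether the 46 genes differ from the rest in this was not tested. The median difference of all genes was also negative in tg B (-0.21) and IgM-positive cells (-0.14), each against fetal liver IgM-negative B cells.

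**Figure D1:**
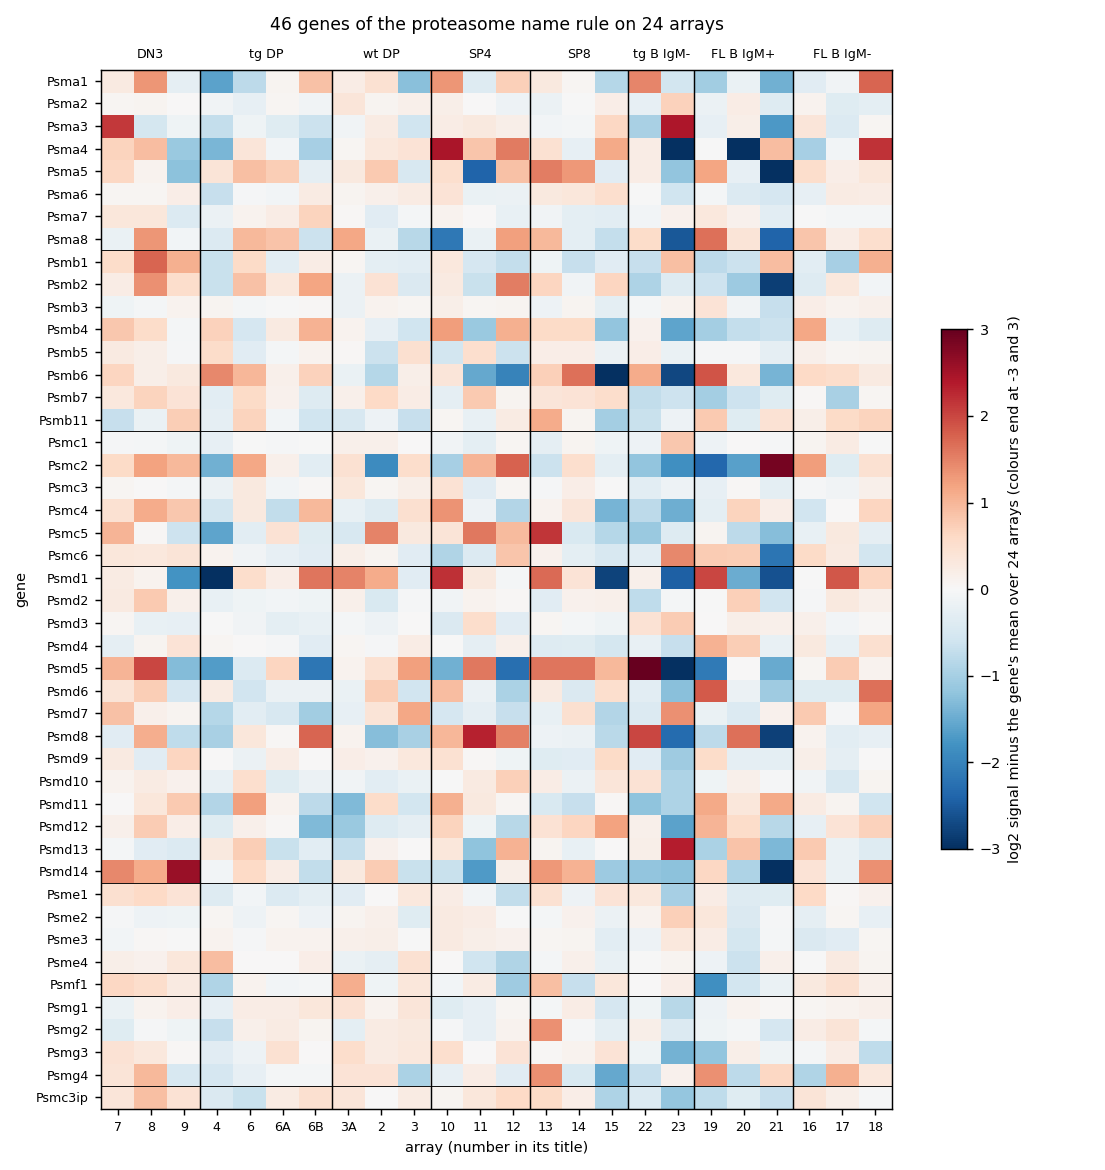
Log2 signal of each of the 46 genes (down the page, by role: alpha ring, beta ring, base ATPases, non-ATPase genes, activators, inhibitor, assembly chaperones and Psmc3ip) minus that gene's mean, on 24 arrays grouped by cell type. Strong colours sit in single squares more than in whole groups, and tg B array 23 and IgM-positive array 21 hold many of the blue ones.

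Per array, the median of the genes' deviations from their own means over the 24 arrays was lowest on tg B array 23, at -0.58, where the median deviation of all genes was -0.26. IgM-positive array 21 followed with -0.37 (all genes -0.22), and tg DP array 4 with -0.29 (all genes -0.13). The highest values were 0.28 and 0.26 on DN3 arrays 8 and 7, where the median deviations of all genes were 0.01 and 0.07. The low arrays are therefore also low over all genes on this scale, and the part of signal quality in the proteasome values was not tested.

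The genes moved with each other only weakly. Over 24 arrays and 1035 pairs of genes, the median Pearson correlation was 0.10, with a middle range of -0.10 to 0.27. It was 0.04 for deviations from group means, and 0.04 without tg B 23, tg DP 4 and IgM-positive 21. These pairs share their arrays and scaling, and the values are a description.

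The spread between replicate arrays ran from an SD of 0.20 for Psmc3, a base ATPase, to 1.71 for Psmd1, the large scaffold subunit of the base, with a median of 0.58. In 21 of 46 genes it was under 0.5. Genes with dim probes varied more: across the 46 genes, Spearman's rho of this SD with the mean signal was -0.84, with the probe's GC content -0.49, and with the probe's position in the transcript 0.00. In 35 genes the probe was well above background on all 24 arrays. Psma8 was so on 16 arrays, Psmd1 on 18 and Psmd5 on 20.

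**Figure D2:**
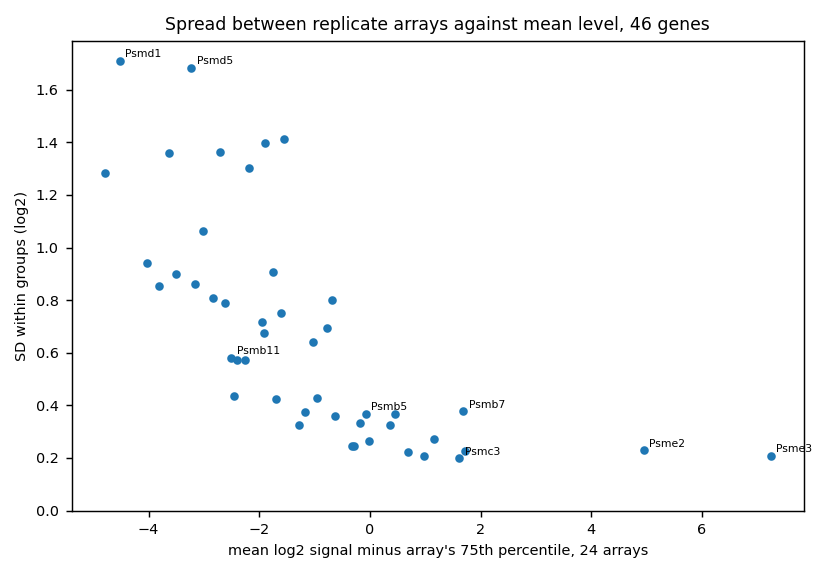
SD within groups of each of the 46 genes (vertical axis, log2 units) against its mean log2 signal relative to the array's 75th percentile (horizontal axis). Psmd1 and Psmd5 have the largest SD, and the genes with signals above the 75th percentile all lie at an SD below 0.5.

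Several genes had more than 1 probe, and these did not always tell the same story. Of the 46 genes, 35 had 1 probe, 10 had 2 and 1 had 3. The correlation of the 12 further probes with the brightest probe of their gene ran from -0.61 to 0.98 over 24 arrays, with a median of 0.35. In 34 of 96 group differences a further probe had the opposite sign to the brightest one. Psma4, a gene of the alpha ring, is an example, with r = 0.03 between both of its 60-base probes. They lie at chr9:54804685-54805444 and chr9:54802741-54804087 (mm9, plus strand), at bases 643 to 702 and 409 to 468 of the transcript. The sequences, from the deposited spot files, are shown with that of the only probe of Psmb7 (chr2:38468966-38489385, mm9, minus strand, bases 500 to 559 of the transcript), on which the smallest adjusted p of the set rests; the array's intervals run from the first to the last base and include introns.
Psma4 brightest probe: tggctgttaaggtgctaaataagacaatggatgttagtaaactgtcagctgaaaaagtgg
Psma4 further probe: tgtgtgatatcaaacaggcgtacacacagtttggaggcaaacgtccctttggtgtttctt
Psmb7 probe: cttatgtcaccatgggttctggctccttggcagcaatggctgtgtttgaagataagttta
The GC contents of these 3 probes are 38.3%, 45% and 45%. In tg B against fetal liver IgM-negative B cells, the first Psma4 probe differed by -2.40 and the other by 0.53. Psmc2, a base ATPase, is the opposite case: its probes share 50 of 60 bases and correlated at r = 0.98. For Psme2 the brightest probe correlated at r = -0.61 and r = 0.45 with its other probes, and the array annotation spreads that probe over 219297 bases of chromosome 14.

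**Figure D3:**
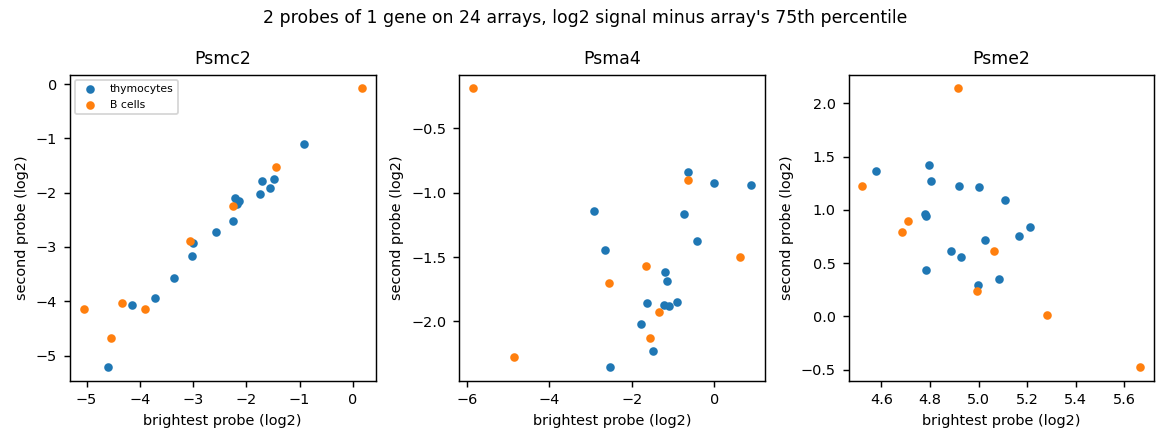
Second probe (vertical axis) against brightest probe (horizontal axis) of Psmc2, Psma4 and Psme2, as log2 signal minus the array's 75th percentile, 1 point per array (blue thymocytes, orange B cells). The Psmc2 points follow a line (r = 0.98), the Psma4 points do not (r = 0.03), and the Psme2 points slope downwards (r = -0.61).

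The active beta subunits and Psmb11 were followed through every group. Psmb7 measured 2.00, 2.36 and 2.11 in DN3, 1.37, 2.26, 1.83 and 1.30 in tg DP, 1.85, 2.28 and 1.90 in wt DP, 1.42, 2.47 and 1.77 in SP4, and 2.05, 2.10 and 2.22 in SP8 cells. In B cells Psmb7 measured 0.95 and 1.06 in tg B, 0.67, 1.07 and 1.32 in IgM-positive and 1.73, 0.71 and 1.75 in IgM-negative fetal liver cells. Every DN3, wt DP and SP8 array lay above every B cell array, while SP4 and tg DP overlapped with them. Psmb5 stayed close to the array's 75th percentile, with 0.19, 0.10 and -0.11 in DN3, 0.47, -0.42, -0.14 and 0.04 in tg DP, -0.05, -0.72 and 0.41 in wt DP, -0.62, 0.44 and -0.71 in SP4, and 0.13, 0.13 and -0.26 in SP8 cells. Psmb5 measured 0.13 and -0.28 in tg B, -0.11, -0.11 and -0.34 in IgM-positive and 0.09, -0.02 and -0.00 in IgM-negative fetal liver B cells. For Psmb5 the IgM-positive values lay below the IgM-negative ones, every other pair of groups overlapped, and its group means spanned 0.35 against an SD of 0.37 within groups. These Psmb5 values are of its brightest probe. Against fetal liver IgM-negative cells that probe differed by -0.10 in tg B and by -0.21 in IgM-positive cells. The other Psmb5 probe (r = 0.59) differed there by -0.87 and -0.78, so how even Psmb5 was rests on the probe.

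Psmb6 was far less even. It measured -1.27, -1.73 and -1.61 in DN3, -0.47, -0.90, -1.74 and -1.21 in tg DP, -2.10, -2.76 and -1.74 in wt DP, -1.55, -3.44 and -3.90 in SP4, and -1.20, -0.24 and -5.20 in SP8 cells. Psmb6 in B cells measured -0.79 and -4.63 in tg B, -0.02, -1.57 and -3.29 in IgM-positive and -1.29, -1.37 and -1.64 in IgM-negative fetal liver cells. Single arrays, SP8 15 and tg B 23 among them, set its SD of 1.40 within groups. Psmb11 is the thymoproteasome subunit of cortical thymic epithelium, a cell that was not sorted here. Its probe measured -3.20, -2.70 and -1.77 in DN3, -2.76, -1.84, -2.58 and -3.11 in tg DP, -2.98, -2.65 and -3.19 in wt DP, -2.44, -2.74 and -2.27 in SP4, and -1.39, -2.43 and -3.52 in SP8 cells. In B cells Psmb11 measured -3.18 and -2.67 in tg B, -1.72, -2.87 and -2.08 in IgM-positive and -2.33, -1.92 and -1.83 in IgM-negative fetal liver cells. The Psmb11 probe was thus well above background on all 24 arrays, fetal liver included, and the thymocyte and B cell ranges overlapped. The mean level of the 12 markers of thymic epithelium, of which Psmb11 is 1, lay between -1.78 and -0.82 on the thymocyte arrays and between -2.21 and -1.39 on the B cell arrays, and its part in the Psmb11 signal was not tested.

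**Figure D4:**
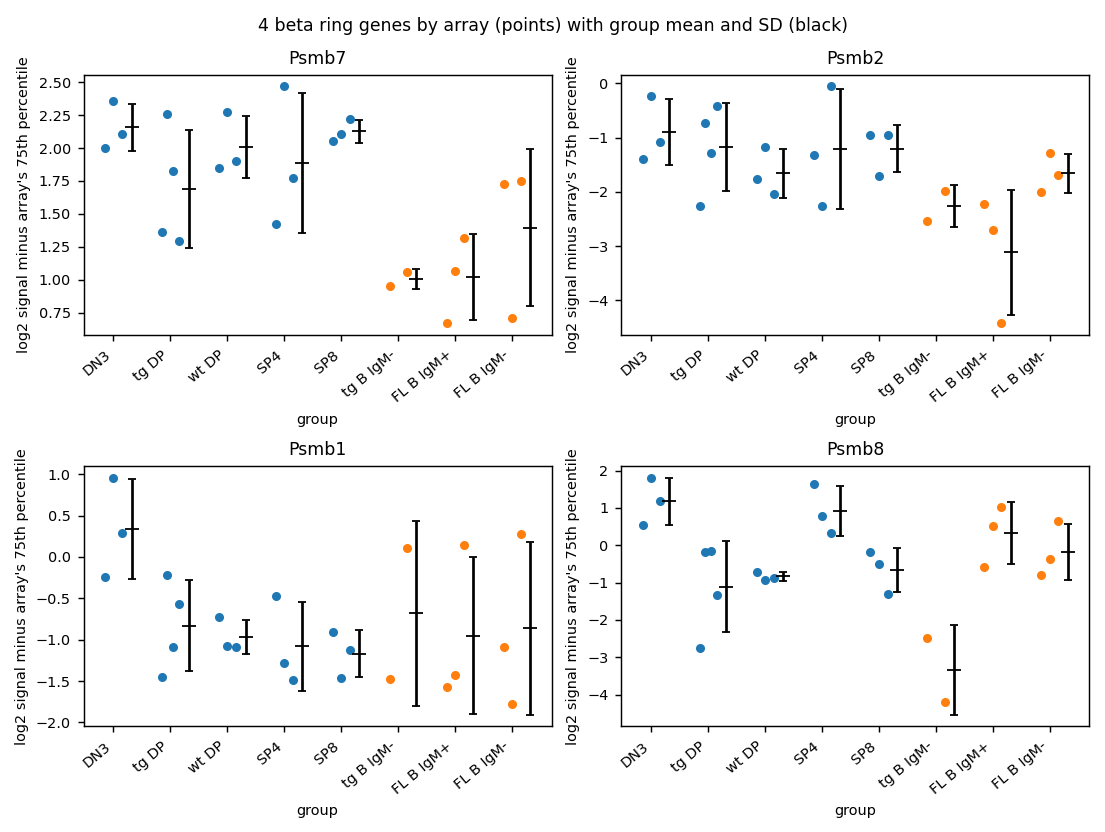
Log2 signal, relative to each array's 75th percentile, of Psmb7, Psmb2, Psmb1 and the immunoproteasome gene Psmb8 in the 8 groups, 1 point per array (blue thymocytes, orange B cells), with the group mean and SD in black. Psmb7 and Psmb2 lie lower in most B cell arrays, Psmb1 is highest in DN3, and Psmb8 has its lowest group mean in tg B, with arrays at -2.49 and -4.19.

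The activators open the gate of the core. Psme1 and Psme2 are the interferon-inducible pair. Psme1 measured -0.71, -0.58 and -0.77 in DN3, -1.57, -1.25, -1.59 and -1.48 in tg DP, -1.51, -1.16 and -0.86 in wt DP, -0.97, -1.26 and -1.91 in SP4, and -0.72, -1.33 and -0.76 in SP8 cells. Psme1 in B cells measured -0.87 and -2.17 in tg B, -0.97, -1.56 and -1.54 in IgM-positive and -0.58, -1.15 and -1.06 in IgM-negative fetal liver cells. All DN3 values of Psme1 lay above all tg DP, wt DP, SP4, tg B and IgM-positive values, and its group means spanned 0.83 against an SD of 0.38 within groups. Psme2 measured 4.92, 4.78 and 4.80 in DN3, 5.0, 4.78, 5.0 and 4.80 in tg DP, 5.03, 5.11 and 4.58 in wt DP, 5.21, 5.17 and 4.93 in SP4, and 4.89, 5.08 and 4.78 in SP8 cells. Psme2 in B cells measured 5.06 and 5.67 in tg B, 5.28, 4.52 and 4.92 in IgM-positive and 4.69, 4.99 and 4.71 in IgM-negative fetal liver cells. The tg B values lay above those of the IgM-negative, DN3 and tg DP groups, and the SP4 values lay just above the DN3 ones.

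Psme3, the nuclear activator, was the steadiest of these, with 7.16, 7.27 and 7.24 in DN3, 7.35, 7.21, 7.34 and 7.34 in tg DP, 7.39, 7.43 and 7.22 in wt DP, 7.52, 7.43 and 7.37 in SP4, and 7.30, 7.33 and 6.92 in SP8 cells. Psme3 in B cells measured 7.10 and 7.55 in tg B, 7.47, 6.71 and 7.19 in IgM-positive and 6.82, 6.91 and 7.30 in IgM-negative fetal liver cells. Its SP4 values lay above those of DN3, tg DP, SP8 and IgM-negative cells, but the group means spanned only 0.43, against an SD of 0.21 within groups. Psme4, the large activator known for acetylated histones, measured -0.01, -0.06 and 0.15 in DN3, 0.75, -0.17, -0.16 and 0.03 in tg DP, -0.37, -0.44 and 0.26 in wt DP, -0.16, -0.78 and -1.09 in SP4, and -0.24, -0.04 and -0.40 in SP8 cells. Psme4 in B cells measured -0.20 and -0.10 in tg B, -0.33, -0.83 and -0.03 in IgM-positive and -0.18, 0.09 and -0.09 in IgM-negative fetal liver cells. For Psme4 the SP4 values reached lowest, below all DN3 values, and they overlapped with the other 6 groups.

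The first comparison asked whether DP thymocytes that developed in the transgenic, Foxn1-deficient thymus carry other proteasome levels than DP thymocytes of the heterozygous thymus. Of the 46 genes, 28 were lower and 18 higher in tg DP, or 39.1% higher against 41.2% of all genes. The median difference was -0.12, against -0.06 for all genes. The shift depends on the scaling: with quantile normalization 22 of 46 genes were higher, and the medians were -0.0044 for the 46 genes and -0.026 for all genes. Without tg DP array 4 the median was -0.05. In the beta ring 7 of 8 genes were higher (median difference 0.25), whereas 0 of 4 Psmg assembly chaperones were (median -0.17). Neither set holds a called gene. limma called 0 of 46 genes, where 0% of all genes tested were called, and 1 gene against 3.28% of all genes had an unadjusted p under 0.05. That gene was Psmd7, a lid subunit that pairs with the deubiquitinase Psmd14. Psmd7 measured -3.25, -2.72, -2.88 and -3.45 in tg DP, against -2.66, -2.02 and -1.25 in wt DP. All 4 tg values lay below all wt values, the difference being -1.10 ± 0.42 (adjusted p = 1.0).

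Psmf1, an inhibitor of the core, measured -3.17, -2.17, -2.33 and -2.33 in tg DP, against -1.18, -2.38 and -1.92 in wt DP (difference -0.67 ± 0.42, adjusted p = 1.0). The groups overlapped. On the other side, Psma7 of the alpha ring measured -0.19, 0.09, 0.21 and 0.65 in tg DP, against 0.02, -0.35 and -0.08 in wt DP (difference 0.33 ± 0.21, adjusted p = 1.0). Psme4 differed by 0.30 ± 0.26 (adjusted p = 1.0) on its brightest probe, with array 4 alone above the wt values. On its other probe Psme4 differed by -1.02, so the sign rests on the probe. The tg arrays lay wholly above the wt arrays for 0 genes, where 2.64% of all genes did so, and wholly below for 3 (Psma2, Psmc1 and Psmd7), where 4.26% did. SEs of single genes ran from 0.17 to 1.24, with a median of 0.43. Within slide 2, with 3 tg and 3 wt arrays, the median difference was -0.05, against -0.03 for all genes.

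Thymic tg B cells were set against fetal liver IgM-negative B cells, a contrast of tissue, age and genotype at once. Here the genes were lower as a rule, 34 of 46, with 12 higher, or 26.1% against 36.8% of all genes. Their median difference was -0.42, against -0.21 for all genes. This split depends on the scaling: with arrays aligned on their medians, 21 of 46 were higher and the median was -0.12, while the median of all genes was 0.09. Other markers moved with this contrast, and their part in it was not tested. The mean level of 6 cell cycle markers was -2.29 and -1.42 on the tg B arrays, where 5 of 6 were well above background, against -1.27 to -0.81 on the fetal liver arrays, where 6 of 6 were; limma called 1 of them lower (Pcna, the sliding clamp of DNA synthesis, difference -3.66 ± 0.68, adjusted p = 0.0472). The mean level of 10 B lineage markers, all well above background, was -0.96 and -1.14 on the tg B arrays, against -0.72 to -0.04 on the fetal liver arrays, and limma called 0 of 10. limma called 0 of 46 genes, where 0.149% of all genes tested were called. An unadjusted p under 0.05 was held by 4 genes, or 8.70%, against 17.1% of all genes. Genes with both tg arrays below all fetal liver arrays numbered 11 of 46, the same share as the 23.9% of all genes. Genes with both above numbered 2, where 9.04% of all genes did so. The 11 include the ATPases Psmc2, Psmc3, Psmc4 and Psmc5 and the subunits Psmd2, Psmd11 and Psmd14. The others are the base assembly chaperone Psmd9, the chaperone Psmg1, Psmb11 and Psmc3ip. Psmc3 differed by -0.24 on its brightest probe and by 0.16 on its other probe, so its sign rests on the probe. The further probes of Psmc2, Psmd9 and Psmg1 were lower in tg B as well.

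Psmc3ip measured -1.37 and -2.11 in tg B, against -0.58, -0.78 and -0.99 in fetal liver IgM-negative B cells, a difference of -0.95 ± 0.38 (adjusted p = 0.228). Psmg1, which helps to build the alpha ring, measured -0.42 and -1.11 in tg B, against -0.23, -0.18 and -0.13 in the fetal liver cells (difference -0.59 ± 0.24, adjusted p = 0.231). For both genes array 23 lay lowest. Psmd3, a lid subunit, was higher with 2.14 and 2.48 in tg B, against 1.87, 1.62 and 1.75 in the fetal liver cells (difference 0.56 ± 0.22, adjusted p = 0.224). Psme2 differed by 0.57 ± 0.23 (adjusted p = 0.225) on its brightest probe and by -0.57 on its second probe, so the sign rests on the probe. Both tg arrays lay on slide 4 with the 3 fetal liver arrays.

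The count of calls in this contrast rests on array 22. Without it, array 23 alone stood for tg B and limma called 7 of 46 genes (Psma2, Psma3, Psma4, Psmc1, Psme1, Psme2 and Psmg1), while 5786 genes of the array were called. The lone array is then assumed to vary like the other groups, and it is the array with the lowest signals. Without array 23 the median difference was -0.22, and without array 22 it was -0.65. The direct test of whether the tg difference of DP cells and that of B cells differ called 0 of 46 genes with limma, where 0.00596% of all genes tested were called. An unadjusted p under 0.05 was held by 2 genes, or 4.35%, against 9.68% of all genes. For Psma2 of the alpha ring the tg difference was -0.30 ± 0.20 in DP and 0.42 ± 0.24 in B cells, and for Psmd3 it was -0.09 ± 0.19 in DP and 0.56 ± 0.22 in B cells. The DP difference minus the B difference was -0.72 ± 0.31 for Psma2 (adjusted p = 0.487) and -0.65 ± 0.29 for Psmd3 (adjusted p = 0.496). Psmb11 (1.25 ± 0.67, adjusted p = 0.559) and Psmd11 (1.34 ± 0.74, adjusted p = 0.567) had the strongest positive statistics.

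In fetal liver, IgM-positive B cells were compared with IgM-negative B cells, the step at which surface IgM appears. Of the 46 genes, 35 were lower and 11 higher in IgM-positive cells, or 23.9% higher against 34.1% of all genes. The median difference was -0.30, against -0.14 for all genes. In the beta ring 0 of 8 genes were higher (median -0.24), and in the alpha ring 2 of 8 (median -0.62). With quantile normalization 19 of 46 were higher and the median was -0.14. limma called 0 of 46 genes, where 0% of all genes tested were called, and 4 genes, or 8.70%, had an unadjusted p under 0.05, against 7.00% of all genes. Psmf1 measured -4.09, -2.80 and -2.47 in IgM-positive cells, against -1.96, -1.79 and -2.12 in IgM-negative cells (difference -1.16 ± 0.45, adjusted p = 0.637). Psmb2 of the beta ring measured -2.22, -2.70 and -4.42 in IgM-positive cells, against -2.0, -1.28 and -1.70 in IgM-negative cells (difference -1.46 ± 0.59, adjusted p = 0.644). Neither gene's groups overlapped, and in Psmb2 array 21 lay far below the rest.

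Higher in IgM-positive cells was Psmd11, a lid subunit that stabilises the assembled particle, with 0.09, -0.70 and 0.10, against -0.79, -0.96 and -1.64 in IgM-negative cells (difference 0.96 ± 0.51, adjusted p = 0.736). Psmd4, a ubiquitin receptor, measured 1.41, 1.10 and 0.15 in IgM-positive cells, against 0.66, 0.15 and 0.85 in IgM-negative cells (difference 0.34 ± 0.27, adjusted p = 0.838), and the groups overlapped. Genes with all IgM-positive arrays below all IgM-negative arrays numbered 7 (Psmb2, Psmb4, Psmb5, Psmc3ip, Psmd5, Psmf1 and Psmg2), where 11.3% of all genes did so, and 1 lay above, where 2.11% did. Array 21 carried much of the shift: without it the median difference was -0.12, against -0.10 for all genes. Within slide 4, with 2 IgM-positive and 3 IgM-negative arrays, the median was -0.43.

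Along the thymocyte stages, wt DP cells were first compared with DN3 cells, which precede them. The genes were lower in 26 of 46 cases and higher in 20, or 43.5% higher against 55.5% of all genes. Against a median of 0.03 for all genes, their median difference was -0.19. That median rests on single arrays: it was -0.04 without DN3 array 8, -0.12 without DN3 array 7, -0.10 without wt DP array 3 and -0.30 without DN3 array 9. In the beta ring 1 of 8 genes was higher (median -0.52), and among the Psmg assembly chaperones 3 of 4 were (median 0.18). limma called 0 of 46 genes, where 0% of all genes tested were called, and 1 gene had an unadjusted p under 0.05, or 2.17%, against 2.07% of all genes. Genes with all wt DP arrays below all DN3 arrays numbered 10, where 5.56% of all genes did so, and 2 genes, Psma2 and Psmc1, lay above, where 6.35% did. The 10 are Psmb1 and Psmb6 of the beta ring, the ATPases Psmc2 and Psmc6, Psmd2, Psmd10, Psmd12 and Psmd14, Psme1 and Psmc3ip.

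Psmb1, a beta subunit without an active site, measured -0.73, -1.07 and -1.09 in wt DP, against -0.24, 0.96 and 0.29 in DN3 cells. The difference was -1.30 ± 0.54 (adjusted p = 1.0). Psmd2, a ubiquitin-binding scaffold of the base, measured -1.14, -1.73 and -1.33 in wt DP, against -1.01, -0.50 and -1.12 in DN3 cells (difference -0.53 ± 0.27, adjusted p = 1.0). Psmg1 measured 0.15, -0.17 and 0.08 in wt DP, against -0.48, -0.17 and -0.09 in DN3 cells (difference 0.26 ± 0.21, adjusted p = 1.0), with DN3 arrays 8 and 9 inside the wt DP range. Psmc3 measured 1.97, 1.67 and 1.78 in wt DP, against 1.69, 1.63 and 1.56 in DN3 cells (difference 0.18 ± 0.18, adjusted p = 1.0). On its other probe Psmc3 differed by -0.29, so the sign rests on the probe. DN3 arrays 8 and 9 lay on slide 3, and all wt DP arrays on slide 2. Within slide 2, with 3 wt DP arrays and 1 DN3 array, the median difference was -0.31 against -0.01 for all genes.

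The single-positive cells were next compared with wt DP cells, the stage before them; both comparisons use the same wt DP arrays, and no slide held both kinds of cell. In SP4, 25 of 46 genes were lower and 21 higher, or 45.7% higher against 42.6% of all genes (median difference -0.06, all genes -0.07). In SP8, 22 were lower and 24 higher, or 52.2% higher against 46.8% of all genes (median 0.02, all genes -0.02). The sign of these small medians turned with the scaling or with single arrays. limma called 0 of 46 genes in SP4 against wt DP, where 0% of all genes tested were called, and 0 of 46 in SP8 against wt DP, where 0% were called. At an unadjusted p under 0.05 there were 2 genes for SP4, or 4.35% against 6.44% of all genes, and 1 for SP8, or 2.17% against 2.14%. In SP4 0 of 4 Psmg assembly chaperones were higher.

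Psmd8, a lid subunit, had the largest difference of the set in SP4 against wt DP, with -1.19, 0.13 and -0.66 in SP4, against -2.08, -3.45 and -3.15 in wt DP (difference 2.32 ± 1.01, adjusted p = 0.742). Its groups did not overlap, but its SD within groups was 1.30. Psmd11 measured 0.04, -0.73 and -0.97 in SP4, against -2.36, -0.50 and -1.59 in wt DP (difference 0.93 ± 0.51, adjusted p = 0.825). Psmg1 measured -0.64, -0.52 and -0.23 in SP4, against 0.15, -0.17 and 0.08 in wt DP (difference -0.48 ± 0.21, adjusted p = 0.754). Psmd7 measured -2.91, -2.67 and -3.09 in SP4, against -2.66, -2.02 and -1.25 in wt DP (difference -0.92 ± 0.45, adjusted p = 0.793). For both of these the SP4 values were the lower ones without overlap. All SP4 arrays lay above all wt DP arrays for 3 genes (Psma4, Psmd8 and the chaperone Psmd10), where 5.67% of all genes did so, and below for 2, where 9.75% did.

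In SP8 cells Psmd12, a lid subunit, measured -1.47, -1.26 and -0.70, against -3.01, -2.30 and -2.17 in wt DP (difference 1.35 ± 0.53, adjusted p = 1.0), without overlap. The other Psmd12 probe, which correlated at r = 0.26 with this one, differed by only 0.26. Psmd10 measured -0.42, -0.81 and -0.26 in SP8, against -0.73, -0.94 and -0.82 in wt DP (difference 0.34 ± 0.29, adjusted p = 1.0). Psmd4 measured -0.03, 0.01 and -0.16 in SP8, against 0.42, 0.33 and 0.59 in wt DP (difference -0.50 ± 0.27, adjusted p = 1.0). Psmd4 did not overlap between these groups, whereas Psmd10 did. Psmg1 measured -0.34, -0.07 and -0.78 in SP8, against 0.15, -0.17 and 0.08 in wt DP (difference -0.41 ± 0.21, adjusted p = 1.0), with SP8 array 14 inside the wt DP range. All SP8 arrays lay above all wt DP arrays for 2 genes, Psma6 and Psmd12, where 4.92% of all genes did so, and below for 1, Psmd4, where 5.77% did.

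SP4 and SP8 cells, the CD4 and CD8 branches of the same step, were then compared directly. Of the 46 genes 21 were lower and 25 higher in SP4, or 54.3% higher against 46.1% of all genes. The median difference was 0.04, against -0.03 for all genes. limma called 0 of 46 genes, where 0% of all genes tested were called, and 0 of 46 had an unadjusted p under 0.05, against 5.13% of all genes. Psmd8 measured -1.19, 0.13 and -0.66 in SP4, against -2.35, -2.36 and -2.99 in SP8 (difference 1.99 ± 1.01, adjusted p = 0.969). Psmd11 measured 0.04, -0.73 and -0.97 in SP4, against -1.49, -1.72 and -1.01 in SP8 (difference 0.85 ± 0.51, adjusted p = 0.998). Neither overlapped. Psmd5, an assembly chaperone of the base, measured -4.67, -1.66 and -5.50 in SP4, where array 12 was not well above background, against -1.62, -1.61 and -2.26 in SP8 (difference -2.11 ± 1.30, adjusted p = 1.0). Psme4 differed by -0.45 ± 0.28 (adjusted p = 1.0). All SP4 arrays lay above all SP8 arrays for 4 genes (Psmd4, Psmd8, Psmd11 and Psme3), where 4% of all genes did so, and below for 0, where 6.67% did. Within slide 3, with 2 SP4 and 3 SP8 arrays, the median difference was 0.12.

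Across lineages, the 12 wt thymocyte arrays were compared with the 6 fetal liver B cell arrays. Lineage, tissue and labelled genotype differ together here (Foxn1 +/- thymus against wild-type fetal liver), which cannot be told apart. Any difference in age between the thymus and the fetal liver is joined to these as well. This contrast came closest to a call. Of the 46 genes, 17 were lower and 29 higher in thymocytes, or 63.0% higher against 57.1% of all genes. The alpha ring had 6 of 8 genes higher and the base ATPases 5 of 6. The median difference of the 46 genes was 0.12, against 0.05 for all genes. This direction turned with slide as a block, where 16 of 46 genes were higher and the median was -0.19, against -0.02 for all genes. Within slide 1, with 1 array of each lineage, 18 of 46 were higher and the median was -0.09, against 0.08 for all genes. Without IgM-positive array 21 the median was 0.04. limma called 0 of 46 genes, where 0.206% of all genes tested were called, and 5 genes, or 10.9%, had an unadjusted p under 0.05, against 13.3% of all genes. Psmb7 ran from 1.42 through a median of 2.08 to 2.47 in thymocytes, against 0.67, 1.19 and 1.75 in fetal liver B cells as lowest, median and highest. It averaged 2.04 ± 0.28 in thymocytes and 1.21 ± 0.48 in fetal liver B cells (SD, n = 12 and 6), a difference of 0.84 ± 0.19 (limma, adjusted p = 0.0669). Its ranges met only where SP4 array 10 lay below 2 of the IgM-negative arrays.

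Psmb2 ran from -2.26 through a median of -1.25 to -0.06 in thymocytes, against -4.42, -2.11 and -1.28 in fetal liver B cells (difference 1.14 ± 0.36, adjusted p = 0.165). Psmd4 went the other way, from -0.16 through 0.34 to 0.77 in thymocytes, against 0.15, 0.75 and 1.41 in fetal liver B cells (difference -0.43 ± 0.17, adjusted p = 0.254). Psmb11 ran from -3.52 through -2.67 to -1.39 in thymocytes, against -2.87, -2.0 and -1.72 in fetal liver B cells (difference -0.48 ± 0.28, adjusted p = 0.494). All 3 overlapped between the lineages, and 0 of 46 genes had all thymocyte arrays above or all below the B cell arrays, where 0.137% and 0.304% of all genes did so. Lineage and slide ran nearly together: 5 of the 6 B cell arrays lay on slide 4, which held no thymocytes. On slide 1, which held 1 array of each, Psmb7 was 2.47 on SP4 array 11 and 0.67 on IgM-positive array 19, and Psmb2 was -2.26 and -2.22 on the same arrays. With slide as a block the Psmb7 difference was 1.49 ± 0.53 (adjusted p = 0.367), and that of Psmb2 turned to -1.43 ± 0.76 (adjusted p = 0.585).

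**Figure D5:**
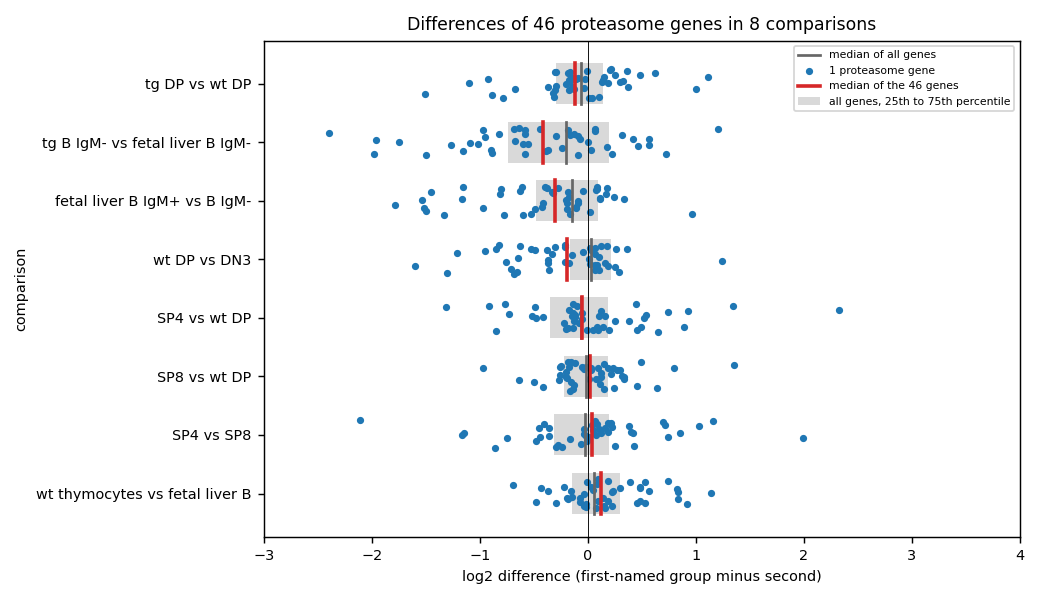
Log2 differences of the 46 genes (blue points, each gene once per comparison) in 8 comparisons, first-named group minus second, with their median (red), the median of all genes (dark grey) and the middle range of all genes (light grey bars). The medians of the 46 genes lie at -0.42 in tg B, -0.30 in IgM-positive B cells and -0.19 in wt DP against DN3, and within 0.12 of 0 in the other comparisons.

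The wider pathway was covered by 33 genes, of which 30 were tested: the immunoproteasome, other parts and assembly factors, transcriptional control, ubiquitin genes, shuttles and adaptors. limma called 0 of 30 in any comparison, and between 1 and 6 of them had an unadjusted p under 0.05. Of all genes, 2.07% to 17.1% did so, depending on the comparison. The count of 6 of 30 was reached in tg B (all genes 17.1%) and in IgM-positive B cells (7.00%). It was also reached in thymocytes against B cells (13.3%) and in the test for any difference among the groups (13.6%). Psmb8, the immunoproteasome counterpart of Psmb5, came nearest. It measured -2.49 and -4.19 in tg B, against -0.80, -0.37 and 0.64 in fetal liver IgM-negative B cells (difference -3.16 ± 0.72, adjusted p = 0.0864). Without array 22 that difference was -4.01 (adjusted p = 0.00508), with array 23 alone for tg B. Psmb8 measured -0.71, -0.92 and -0.88 in wt DP, against 0.54, 1.81 and 1.18 in DN3 cells (difference -2.01 ± 0.64, adjusted p = 1.0). It measured 1.65, 0.78 and 0.34 in SP4, a difference of 1.76 ± 0.64 from wt DP (adjusted p = 0.641) and of 1.58 ± 0.64 from SP8 (adjusted p = 0.920), where it was -0.17, -0.50 and -1.30. Psmb8 was thus lower in wt DP than in DN3 and SP4 without overlap, and no step passed the test.

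Vcp, the ATPase that extracts ubiquitin-tagged proteins, measured -2.08, -2.04 and -1.90 in IgM-positive B cells, against -1.34, -1.45 and -1.20 in IgM-negative B cells (difference -0.68 ± 0.20, adjusted p = 0.537). Its IgM-positive values all lay below its IgM-negative ones. Akirin2, a nuclear import factor of the proteasome, differed by -1.68 ± 0.59 in IgM-positive B cells (adjusted p = 0.592) and by 1.05 ± 0.59 in SP8 against wt DP (adjusted p = 1.0). Ufd1, a cofactor of Vcp, differed by -0.59 ± 0.23 in SP4 against wt DP (adjusted p = 0.687) and by -0.65 ± 0.23 in SP4 against SP8 (adjusted p = 0.825). Rps27a, a fusion of ubiquitin with a ribosomal protein, differed by -0.96 ± 0.59 in wt DP against DN3 (adjusted p = 1.0), and Zfand2a, a stress-induced adaptor, by -0.79 ± 0.44 in tg DP against wt DP (adjusted p = 1.0).

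Txnl1, a thioredoxin-like protein bound to the regulatory particle, was not well above background on any of the 4 tg DP arrays, with means of -7.69 in tg DP and -4.52 in wt DP. Its tg values were then replaced by the lowest signal of any probe well above background on each tg array. On that floor, which need not be the detection limit of this probe, Txnl1 was 1.80-fold lower in tg DP, which is no firm bound. limma did not call Txnl1 on its own values (adjusted p = 1.0). It was above background on 1 of 3 SP8 arrays and on 3 of 3 wt DP arrays (adjusted p = 1.0), and on 8 of 12 wt thymocyte and 1 of 6 fetal liver B cell arrays (adjusted p = 0.0868). Uba6, a ubiquitin-activating enzyme, was so on 8 of 12 wt thymocyte and 1 of 6 fetal liver B cell arrays (adjusted p = 0.232). No size is given for these differences, since most values of 1 side were not well above background.

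Promoter sequence was looked at for what the genes share. RefSeq promoter windows around the gene starts (GRCm38.p6) were matched for 38 of the 46 genes (all but Psma8, Psmb1, Psmb2, Psmb7, Psmc3, Psmd3, Psmd7 and Psmg2) and searched on both strands. TGACNNNGC, the core of the element bound by Nfe2l1, the factor known to raise proteasome genes, was in 6 of 38 genes (15.8%: Psmb5, Psmb6, Psmc6, Psmd9, Psmd12 and Psme4), against 14.0% of 27025 genes. TGACTCA, the letters of an AP-1 site, which can overlap with it, was in 1 of 38 (2.63%, Psmd9), against 5.95%. CCAAT was in 14 of 38 (36.8%), against 41.1%. A match is a run of letters and not a site.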

How the data were processed

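Poly(A) RNA of 24 sorted cell samples was amplified by PCR after tagging (SuperAmp) and labelled with Cy3, per the labels' protocols. The deposited spot values are intensities from Agilent Feature Extraction 10.7.3.1, per the file headers, with a processed signal that the program has background-corrected. The authors' own log2 values, from the deposited series matrix, have nearly equal distributions between arrays and served as an alternative. Coordinates are those of the array annotation (mm9).

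Control spots were dropped, 248 values from non-uniform spots were treated as missing, 0 spots were saturated, and spots of a probe were averaged, giving 55681 probes and 34787 gene names. Of the probes, 26762 were named by accession, 639 by a synonym and 28280 as in the files. Each array was scaled to its 75th percentile. A gene is its brightest probe by the mean over 24 arrays, kept where a probe of it stood well above background throughout at least 1 group; 95.2% of probes passed, leaving 33545 genes.

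Groups were compared with limma 3.58.1 (lmFit, eBayes) in R 4.3.3, in 1 fit of group means over 24 arrays, with p-values adjusted over all genes. The script was tested on simulated data. The members, gene lists and comparisons were chosen with earlier results of these data known. Named in full were the active beta subunits, Psmb11, the activators, and per comparison the 2 strongest positive and 2 strongest negative statistics among members and the 2 strongest among other pathway genes. Some results under this rule are not reported here. In all, 11 alternatives were tried, and each of 24 arrays was left out in turn. The number of arrays limits the precision; signals below background limit it further for dim probes.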

Additional observations from a re-analysis of the deposited data

Results flagged for a closer look

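In tg DP, the only group of 4 samples, 4 of 46 genes had an array that stood apart from the other 3 by more than Dixon's critical value for the gap over the range. Some such arrays turn up by chance at that limit, at about 1 group in 20. Psmc1, a base ATPase, was 0.726 on array 4, against 0.958 to 0.981 on the other tg DP arrays. Psmf1 was -3.17 on array 4, against -2.33 to -2.17 on the others, and the assembly chaperone Psmg2 was -2.40 on array 4, against -1.61 to -1.46. Psme3 was 7.21 on array 6, against 7.34 to 7.35. Array 4 was the only tg DP array on slide 1 and had the lowest share of probes well above background in its group, 88.0%.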

How the results depend on the processing

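The count of proteasome genes called was 0 in each test run under the 11 alternatives that do not leave out a single array. Leaving out single arrays gave 0 to 7 calls in tg B against fetal liver IgM-negative B cells and 0 to 2 in the difference of the tg effects; both higher counts came without tg B 22, the 2 genes of the second test being Psma2 and Psmc1. The median difference in tg B was -0.13 with the series matrix, -0.15 with normexp, -0.13 with quantile normalization, -0.12 with median scaling and -0.22 without tg B 23. That in IgM-positive B cells was -0.14, -0.13 and -0.14 under the first 3 of these. The median for thymocytes against B cells turned to -0.19 with slide as a block. Leaving out single arrays moved the median of wt DP against DN3 between -0.30 and -0.04. That of tg DP against wt DP was -0.0013 with the series matrix and -0.0065 with normexp. In SP4 against wt DP the median turned sign under 4 of 11 alternatives and 4 of 6 single arrays left out, in SP8 under 1 of 11 and 4 of 6, and in SP4 against SP8 under 1 of 6. Among named genes, Psmb2 in thymocytes against B cells turned to -1.43 with slide as a block; the cause was not tested. Psmb7 there ran from 0.67 to 1.49 over 29 settings, with adjusted p from 0.0517 to 0.367. No paired analysis was possible because the groups share no title numbers.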
